A study of Mus musculus with 4 samples.

Results

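The genes described here are 9 basic leucine zipper (bZIP) transcription factor genes that make up AP-1 and its BATF partners: Fos, Fosb, Fosl1 and Fosl2 (the 4 FOS genes), Jun, Junb and Jund (the 3 JUN genes), and Batf and Batf3 (the 2 BATF genes). They were found by gene symbol among the 54532 genes of the deposited count table, each symbol in 1 row, and all 9 passed the filter on low counts that left 13884 genes for testing. RNA of mouse primary T cells, which come from animals and not from a cell line, was sequenced in 2 Control and 2 PTC libraries, all at 12 h. Both groups were cultured with serum, with IL2, on which T cells grow, and with CD3/28 beads. The beads engage the antigen receptor and the costimulatory receptor CD28, so the Control cells were stimulated too. The labels used here give no strain, sex, age, genotype or dose and do not expand PTC. Nothing in them ties a library to its own animal or culture, so p-values rest on a spread between libraries that may be technical.

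AP-1 is a dimer. A FOS protein cannot pair with itself and binds DNA only with a JUN protein, whereas JUN proteins pair with each other or with FOS, ATF or BATF proteins. In T cells, receptor signals act through MAP kinases to raise FOS and JUN, and AP-1 then binds beside NFAT at cytokine genes. BATF and BATF3 have no transactivation domain of their own. They pair with JUN proteins and, with IRF4 or IRF8, occupy composite sites that direct effector T cells and, for BATF3, conventional dendritic cells.

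With PTC, 1 of the 9 genes passed the test: Fosl2, which encodes the FOS-family protein FRA-2, fell to 77.0% of its Control level. No member passed in the other direction. The test was edgeR's quasi-likelihood F test, adjusted by Benjamini-Hochberg over all genes tested, and it called 1.35% of them at an adjusted p under 0.05, 0.591% higher and 0.763% lower. Before adjustment, 3 members (Fosl2, Jun and Junb) had a p under 0.05, as did 12.9% of all genes tested. The members' fold changes went both ways, 6 positive and 3 negative. Their median log2 fold change was 0.06, beside -0.0030 over all genes tested, and the median of their absolute values was 0.29, beside 0.13 over all genes tested and 0.49 over the genes called.

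Library totals ranged from 15458818 to 16639911 counts, and mitochondrially encoded genes held 1.07% to 1.12% of them. Levels are given as CPM, read counts divided by the library size in megareads, with library sizes scaled by TMM, the trimmed mean of M values. A count of 0 would have allowed a level of up to 0.184 to 0.195 CPM (3 counts), a limit that covers counting error only, and every member lay above it in every library. The 8 T cell markers, Cd3e and Lck among them, were all expressed and summed to 2880 and 2962 CPM in Control and 3070 and 3168 CPM in PTC libraries. Markers of other cells were present too. The 12 markers of monocytes, macrophages and neutrophils summed to 1108 and 1113 CPM in Control and 1353 and 1521 CPM in PTC libraries, mostly Lyz2, and of these 12 genes 2 were called higher and 3 lower. The 7 B cell markers summed to 522 and 529 CPM in Control and 557 and 566 CPM in PTC libraries, mostly Ighm. Igkc alone of them was called, 1.70-fold higher with PTC. Of the 7 dendritic cell markers, Cd209a and Siglech were at 0 in every library and Clec9a had at most 1 count. In a bulk sample, fewer cells of a type and less RNA per cell cannot be told apart, and the part of the other cells in the results below was not tested.

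The promoters of Fos, Jun and Junb are shown because Jun and Junb had intervals on opposite sides of 0, Fos stood on the other side of 0 from Fosl2, and their windows lie outside the gene as the count table gives it. RefSeq start sites were found for 8 of the 9 members, not for Fosl1. The windows of Fosl2 and Batf3 lay wholly inside the transcribed range of the gene as the count table gives it. The Jund window ended at base 70697738 of chromosome 8, apart from the gene's start at 70698949 in the count table. Each line holds the 250 bases before the RefSeq start on GRCm38.p6, read 5′ to 3′ on the gene's own strand (Fos chr12:85473640-85473889, plus; Jun chr4:95052223-95052472, minus; Junb chr8:84978749-84978998, minus). Capitals mark matches to the AP-1 site (TGACTCA), the full cyclic-AMP response element (CRE, TGACGTCA), its half-site (TGACG), the octamer TGACATCA, or the CArG box bound by SRF, each searched on both strands.
Fos: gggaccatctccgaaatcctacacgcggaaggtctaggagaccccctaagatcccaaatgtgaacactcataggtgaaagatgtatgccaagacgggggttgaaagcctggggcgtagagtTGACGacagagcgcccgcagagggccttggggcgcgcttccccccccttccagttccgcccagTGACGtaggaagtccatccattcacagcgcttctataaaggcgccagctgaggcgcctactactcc
Jun: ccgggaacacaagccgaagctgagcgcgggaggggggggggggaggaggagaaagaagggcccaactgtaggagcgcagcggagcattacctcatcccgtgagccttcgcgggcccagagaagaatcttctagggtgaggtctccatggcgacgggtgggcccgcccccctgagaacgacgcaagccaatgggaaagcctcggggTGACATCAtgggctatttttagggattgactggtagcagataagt
Junb: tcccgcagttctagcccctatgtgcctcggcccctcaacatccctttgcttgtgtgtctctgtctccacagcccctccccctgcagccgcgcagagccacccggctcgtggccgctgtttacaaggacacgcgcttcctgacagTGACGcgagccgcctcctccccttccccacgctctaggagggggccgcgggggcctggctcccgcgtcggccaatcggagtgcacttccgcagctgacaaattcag

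In the Jun window the octamer TGACATCA lay 45 to 38 bases before the start. It is known in the human JUN promoter as a site where JUN with ATF2 binds its own gene. It was not found in the windows of the other members, and 2.93% of all 32851 promoter windows of this length held it. The Fos window held 2 CRE half-sites, 1 of them 66 to 62 bases before the start, and a TATA box (TATAAA) 33 to 28 bases before it. The Junb window held 1 half-site. The half-site was also found for Fosb and Batf, so 4 of the 8 members had it, against 17.8% of all windows. G and C made up 58.4% of the Fos window, 68.8% of Fosb, 66.4% of Junb and 46.4% of Batf. The median over all windows was 52.4%, the 17.8% was not matched for this, and enrichment was not tested. The half-site was added to the search after the sequences had been seen. None of the 8 windows held an AP-1 site (4.46% of all windows did), a full CRE (1.55%) or a CArG box (1.47%), which says only that these letters are not in these windows.

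Levels of different genes are compared per length, as CPM per kilobase of gene length in the count table. JUN genes held most of the transcripts. Junb stood at 248 ± 20.6 CPM per kilobase in Control and 216 ± 5.96 in PTC cells (SD, n = 2 each, as throughout), above 98.4% of the genes tested. Jund, the JUN gene known for steady expression in resting cells, followed at 140 ± 14.8 and 145 ± 0.740. Batf stood at 41.4 ± 2.42 and 42.3 ± 3.36, and Batf3 at 19.1 ± 0.557 and 22.1 ± 0.0069. Jun itself, the founding member, was the scarcest JUN gene at 11.5 ± 0.626 and 14.1 ± 0.582 CPM per kilobase. Among FOS genes, Fosl2 stood at 7.47 ± 0.628 and 5.75 ± 0.173, Fosl1 at 5.996 ± 0.253 and 4.60 ± 1.31, Fos at 3.88 ± 0.336 and 4.76 ± 0.273, and Fosb at 0.517 ± 0.0227 and 0.649 ± 0.320. From Junb down to Fosl2, each gene was above the next in all 4 libraries with no overlap of their ranges, by 1.63-fold for Junb over Jund and 3.40-fold for Jund over Batf. The ranges of Fosl2 and Fosl1 overlapped, as did those of Fosl1 and Fos. Fosb lay 7.40-fold below Fos.

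**Figure D1:**
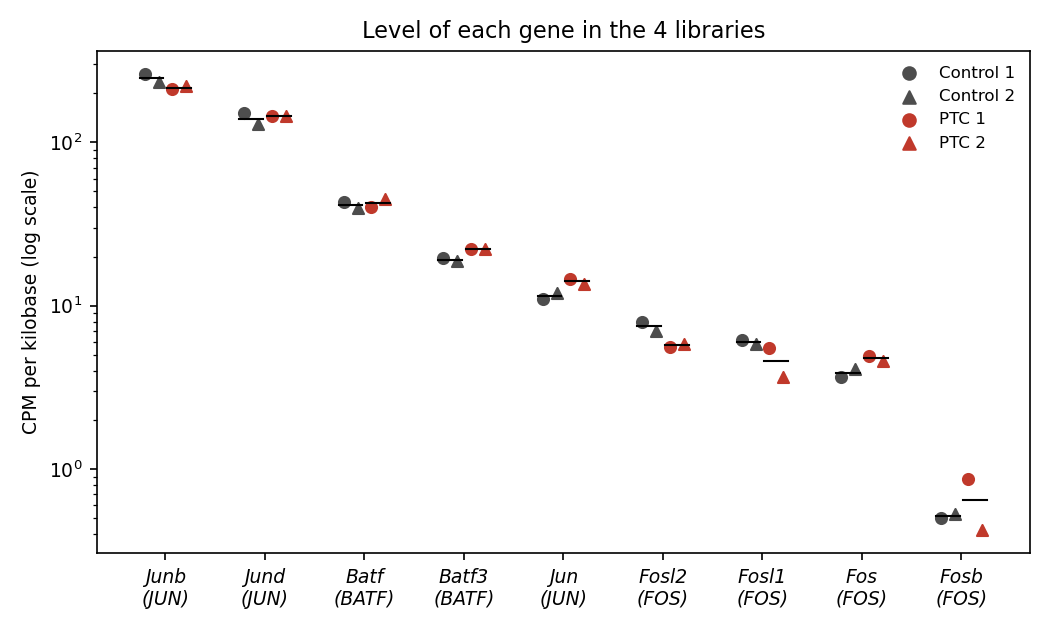
CPM per kilobase (log scale) of each of the 9 genes, ordered by mean level, with 1 point per library (grey Control, red PTC; circles replicate 1, triangles replicate 2) and short lines at the group means. Junb and Jund lie above 100 CPM per kilobase in every library and Fosb below 1.

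Fos and Fosb are known to rise within minutes of stimulation and Fosl1 and Fosl2 later, and Fosl2 was the member that passed the test. Fosl2 (chromosome 5, 32135801 to 32157842, plus strand, GRCm38) stood at 76.6 and 68.0 CPM in the Control libraries and at 54.4 and 56.8 CPM in the PTC libraries. Both PTC libraries lay below both Control libraries. Its mean was 72.3 ± 6.08 CPM in Control and 55.6 ± 1.67 CPM with PTC, and the fitted log2 fold change was -0.38 (standard error 0.09, 95% interval -0.56 to -0.19; edgeR adjusted p = 0.0386, the 163rd smallest p of all genes tested). The adjusted p lay close to the threshold. It stayed under 0.05 in the 6 alternative fits to all 4 libraries (0.0066 to 0.0482) and without Control 2 (0.0080), but not without Control 1 (0.123), PTC 1 (0.424) or PTC 2 (0.123). The log2 fold change was negative in every one of these fits, between -0.46 and -0.28.

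Fos (chromosome 12, 85473890 to 85477273, plus strand), the FOS gene of the classical immediate early response, stood at 8.56 and 9.68 CPM in Control and 11.6 and 10.7 CPM in PTC libraries. The PTC libraries were the higher pair without overlap, opposite to Fosl2. Its log2 fold change of 0.29 (standard error 0.16) did not pass (edgeR adjusted p = 0.476), with a 95% interval from -0.05 to 0.64. Fosl1 (chromosome 19, 5447703 to 5455945, plus strand), which encodes FRA-1, stood at 10.5 and 9.93 CPM in Control and 9.43 and 6.26 CPM in PTC libraries. PTC 2 was the lowest, and the log2 fold change of -0.39 (standard error 0.19; edgeR adjusted p = 0.413) went to -0.12 without it and to -0.71 without PTC 1 (adjusted p = 0.233). Fosl1 counts are uncertain for another reason. In the GENCODE M21 annotation 1163 of the 2033 exonic bases of Fosl1 also belong to Ccdc85b on the opposite strand. Ccdc85b had 755 to 1009 counts per library against 102 to 165 for Fosl1. Whether the counting used strand is not given in the sources used here. The count table gives Fosl1 1707 bases at other coordinates, so the overlap of the gene as counted is not known. Sums over the FOS genes below include Fosl1 and carry this uncertainty. Fosb (chromosome 7, 19302696 to 19310051, minus strand) had 49 and 53 counts in Control and 84 and 43 in PTC libraries. The PTC libraries lay on both sides of the Control libraries, and its log2 fold change of 0.32 (standard error 0.31; edgeR adjusted p = 0.721) turned to -0.29 without PTC 1. Counts per gene do not separate full-length FosB from its shorter splice form.

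**Figure D2:**
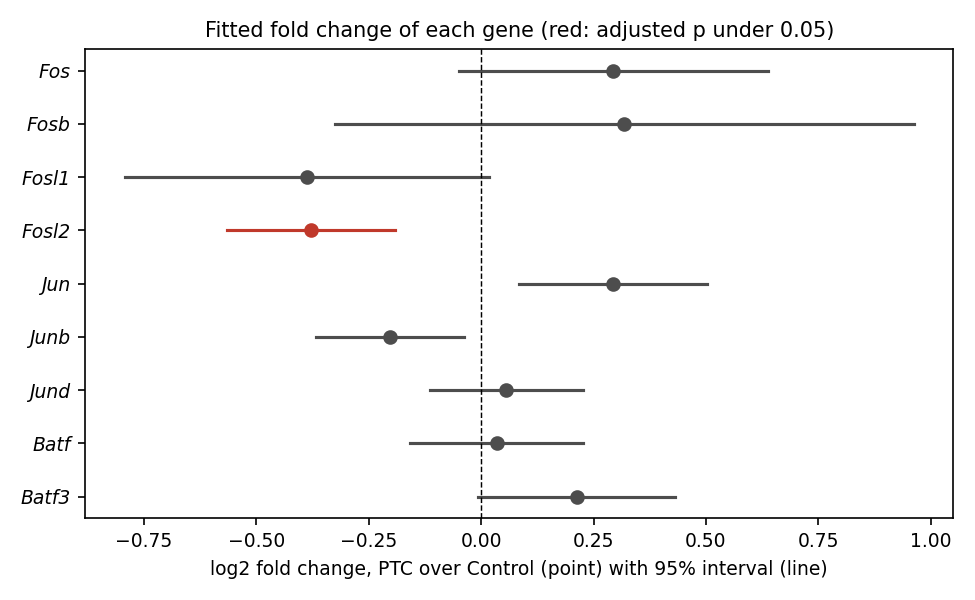
Fitted log2 fold change of PTC over Control for each gene (points) with its 95% interval (lines), from edgeR on all 4 libraries. Fosl2 alone is drawn in red, with an adjusted p under 0.05, and the intervals of Jun (above 0) and Junb (below 0) leave out 0 without a call after adjustment.

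JUN proteins are the partners that FOS and BATF need to bind DNA. None of the 3 JUN genes passed the test, and their fold changes differed in sign. Jun (chromosome 4, 95049034 to 95052222, minus strand) stood at 35.2 and 38.0 CPM in Control and 46.2 and 43.6 CPM in PTC libraries. Both PTC libraries were above both Control libraries. Its log2 fold change was 0.29 (standard error 0.10, 95% interval 0.08 to 0.50), and it missed the threshold over all genes (edgeR adjusted p = 0.182, and from 0.120 to 0.839 over its alternative fits). Junb (chromosome 8, 84974484 to 84978718, minus strand), often set against JUN as a weaker activator, stood at 605 and 538 CPM in Control and 487 and 507 CPM in PTC libraries. Here the PTC libraries were the lower pair. The log2 fold change was -0.20 (standard error 0.08, 95% interval -0.37 to -0.04; edgeR adjusted p = 0.263). It was -0.28 without Control 2 (adjusted p = 0.0221) and -0.11 without Control 1 (0.484), and the adjusted p was 0.947 without PTC 1 and 0.616 without PTC 2. Jund (chromosome 8, 70698949 to 70700616, plus strand) stood at 250.2 and 215 CPM in Control and 241 and 243 CPM in PTC libraries, so the PTC libraries lay between the Control libraries. Its log2 fold change was 0.06 with a 95% interval from -0.11 to 0.23 (edgeR adjusted p = 0.828).

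Other genes overlap the JUN genes on the opposite strand. Junb shares 173 exonic bases with Prdx2, a peroxiredoxin gene whose mean was 249 ± 28.5 CPM without and 260 ± 10.2 CPM with PTC. Jun shares 232 bases with Junos, which had 14 to 25 counts per library. Jund shares 877 bases with Gm11175, which was at 0 in every library. No stretch of 50 bases in the longest annotated transcript of any member was found in a transcript of another member, so the paralogs themselves can be told apart at that length.

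Neither BATF gene passed the test. Batf (chromosome 12, 85686669 to 85709087, plus strand) stood at 60.6 and 55.7 CPM in Control and 56.2 and 62.9 CPM in PTC libraries. The groups overlapped, and the log2 fold change was 0.03 with a 95% interval from -0.16 to 0.23 (edgeR adjusted p = 0.920). Batf3 (chromosome 1, 191097847 to 191108945, plus strand) stood at 31.1 and 29.9 CPM in Control and at 35.3 CPM in both PTC libraries. The PTC pair was the higher one, with a log2 fold change of 0.21 (standard error 0.10, 95% interval -0.0062 to 0.43) that did not pass (edgeR adjusted p = 0.403). Of the 7 dendritic cell markers, 4 were tested and 0 were called. Xcr1 had 0.128 and 0.880 CPM in Control and 0.390 and 1.17 CPM in PTC libraries. These levels rest on 2 to 19 counts, and the groups overlapped. Itgax stood at 18.8 and 17.1 CPM in Control and 14.2 and 15.5 CPM in PTC libraries. Flt3 had a log2 fold change of -0.43 and Zbtb46 of 0.03, with overlapping groups for both.

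Across the 9 genes, the PTC pair lay above the Control pair without overlap for 3 (Fos, Jun and Batf3) and below it for 3 (Fosl1, Fosl2 and Junb), and the groups overlapped for 3. Among all genes tested the groups did not overlap for 43.6%, with PTC higher for 21.3% and lower for 22.2%. The authors' deposited fold change is a log2 ratio of the same counts without scaling for library size, so it is not separate evidence. Its sign matched that of the fit for all 9 genes, and Fosl2 stood at -0.37 and Jun at 0.30.

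Because FOS and BATF proteins both draw on JUN partners, the balance between families was compared within each library, which needs no scaling between libraries. These ratios are sums over chosen genes and are described without a test. A pooled SD from 2 libraries a group is itself poorly known, so setting a difference beside it is no test of that difference. JUN genes made up 84.0% and 83.2% of the summed CPM per kilobase of the 9 genes in Control and 82.4% and 82.3% in PTC libraries. BATF genes made up 12.4% and 12.9% in Control and 13.8% and 14.5% in PTC libraries. FOS genes made up 3.61% and 3.88% in Control and 3.77% and 3.15% in PTC libraries. On this scale the BATF share was higher in both PTC libraries than in either Control library, the JUN share lower, and the FOS share overlapped. The shares are tied to each other, and the summed CPM per kilobase, which depend on library scaling, differed from them. The BATF sums overlapped (62.6 and 58.3 in Control, 62.1 and 66.9 in PTC libraries), as did the JUN sums (424 and 375, 371 and 379). The FOS sums were lower in PTC libraries without overlap (18.2 and 17.5, 17.0 and 14.5). From CPM without division by length, which lets the long Fosl2 transcript weigh more, the BATF share was again the higher in PTC libraries, but the JUN share overlapped (82.4% and 81.8% in Control, 81.8% and 82.0% in PTC libraries) and the FOS share was lower without overlap (9.14% and 9.39% in Control, 8.55% and 7.90% in PTC libraries).

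The log2 ratio of BATF to JUN CPM per kilobase was -2.76 and -2.68 in Control and -2.58 and -2.50 in PTC libraries. The group means differed by 0.18, beside a pooled SD between replicates of 0.05. The difference was 0.20 from counts without division by length and 0.14 to 0.22 with any library left out. The log2 ratio of FOS to JUN was -4.54 and -4.42 in Control and -4.45 and -4.71 in PTC libraries. Its difference of -0.10 was smaller than the pooled SD of 0.14, and it turned to 0.03 without PTC 2. From counts without division by length the difference was -0.17. The ratio of BATF to FOS CPM per kilobase was 3.43 and 3.34 in Control and 3.66 and 4.60 in PTC libraries. Such ratios between genes depend on the gene lengths of the count table and are not counts of molecules.

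**Figure D3:**
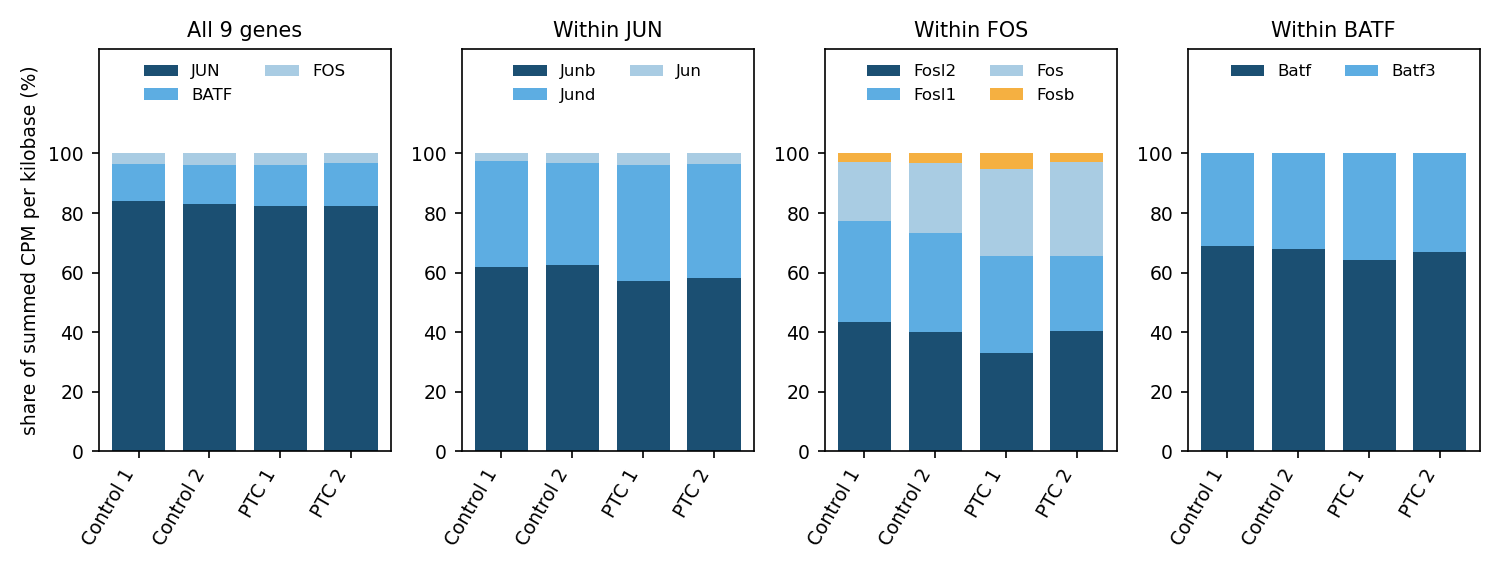
Share (%) of summed CPM per kilobase in each of the 4 libraries, for the 3 families among all 9 genes (left) and for each gene within its family. JUN genes hold 82.3% to 84.0% of the total in every library, and within JUN the Junb segment is smaller in both PTC libraries.

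The make-up within each family was compared in the same way. In the JUN family, Junb held 62.2% ± 0.258 of the CPM per kilobase in Control and 57.6% ± 0.651 in PTC cells. Jund held 34.9% ± 0.667 and 38.7% ± 0.434, and Jun 2.89% ± 0.409 and 3.75% ± 0.217. For each JUN gene the 2 groups did not overlap. The shares are tied to each other, so a lower Junb share alone raises the others. Jund's own level in CPM overlapped between the groups, with a log2 fold change of 0.06. The per-kilobase ratio of Junb to Jund was 1.75 and 1.81 in Control and 1.46 and 1.51 in PTC libraries. The log2 difference was -0.26 beside a pooled SD of 0.03. The ratio of Jun to Junb was 0.0420 and 0.0510 in Control and 0.0684 and 0.0620 in PTC libraries, 1.41-fold higher on average.

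In the FOS family, Fos held 21.7% ± 2.52 of the CPM per kilobase in Control and 30.3% ± 1.61 in PTC cells, without overlap. Fosl2 held 41.8% ± 2.29 and 36.8% ± 5.15. The groups overlapped for Fosl2, which held 43.4% and 40.2% in Control and 33.1% and 40.4% in PTC libraries. The ratio of Fos to Fosl2 was 0.460 and 0.586 in Control and 0.880 and 0.778 in PTC libraries, a log2 difference of 0.67 beside a pooled SD of 0.20. It was the widest of the 11 ratios computed, and it joins a gene that passed the test with one that did not. The ratio of Fosl2 to Junb was 0.0301 and 0.0300 in Control and 0.0266 and 0.0267 in PTC libraries. That of Batf to Junb was 0.164 and 0.170 in Control and 0.189 and 0.203 in PTC libraries. In the BATF family, Batf held 68.4% ± 0.635 in Control and 65.6% ± 1.78 in PTC cells. Of the 11 ratios, FOS to JUN and Fosl1 to Fosl2 overlapped between groups and the rest did not. Single genes did not overlap for 43.6% of those tested, and no such share was computed for ratios. The plan named FOS to JUN and BATF to JUN alone. Several of the ratios, such as Jun to Junb and Fos to Fosl2, join a gene with a positive fold change to one with a negative. Many of the ratios share genes, so they are not separate results.

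**Figure D4:**
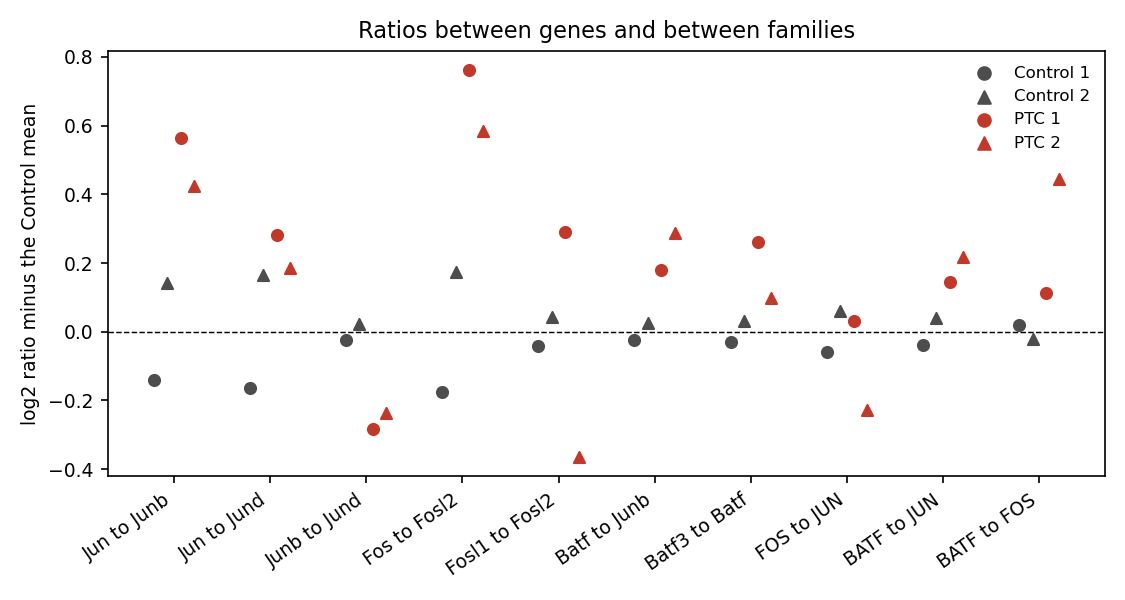
Log2 ratio of CPM per kilobase between genes or summed families in each library, minus the Control mean of that ratio (grey Control, red PTC; circles replicate 1, triangles replicate 2). The Fos to Fosl2 ratio lies highest in PTC libraries, Junb to Jund lies below Control in both, and FOS to JUN overlaps.

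The genes around AP-1 were read from 6 lists of 76 genes in all, of which 75 were tested. Of these, 1 was called higher and 0 lower by edgeR, beside 12 at an unadjusted p under 0.05. Over all genes tested, edgeR called 1.35%, and 12.9% had an unadjusted p under 0.05. A positive fold change was fitted for 49.3% of all genes tested. The counts of each list below stand beside these same shares, and no list was tested as a set. DESeq2 called 2 list genes higher and limma-voom 1. The median log2 fold change of the list genes was 0.03, beside -0.0030 over all genes tested. The called gene was Lif, which encodes an IL6-family cytokine and stood among 22 genes of activated T cells taken as candidate AP-1 targets, 21 of them tested. Lif stood at 21.0 and 22.4 CPM in Control and 40.1 and 36.4 CPM in PTC libraries. It rose 1.76-fold, at a log2 fold change of 0.82 (standard error 0.11; edgeR adjusted p = 0.00057). It was called without each library in turn.

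Other candidate targets did not pass. Il2ra, the gene of the IL2 receptor alpha chain, stood at 287 ± 33.7 and 362 ± 44.5 CPM (log2 fold change 0.33, edgeR adjusted p = 0.0904). The granule protease gene Gzmb had a log2 fold change of 0.07 and the inhibitory receptor gene Ctla4 of -0.09. Il2 and Ifng were scarce, at 2.14 to 3.25 and 1.26 to 1.53 CPM. The list's median was 0.07, with 14 of 21 positive fold changes, beside 49.3% positive over all genes tested.

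None of the 17 MAP kinase and SRF genes upstream of FOS and JUN passed (2 at an unadjusted p under 0.05, 0 by DESeq2 and 0 by limma-voom), and their median log2 fold change was 0.04. Of their fold changes 11 were positive and 6 negative. The 2 genes with an unadjusted p under 0.05 were Elk1 (log2 fold change 0.47, edgeR adjusted p = 0.126) and Elk4 (0.20). The MAP kinase kinase gene Map2k2 had a log2 fold change of -0.10, and the p38 alpha gene Mapk14 of -0.04. None of the 10 co-induced immediate early genes passed either (4 unadjusted, 0 by DESeq2, 0 by limma-voom), with 5 fold changes positive and 5 negative. Nr4a1 stood at -0.09, Ier2 at -0.06 and Myc at -0.03 on the log2 scale. The 4 genes with an unadjusted p under 0.05 were Egr3 (log2 fold change 0.37, edgeR adjusted p = 0.0734), Egr2 (0.34), Btg2 (0.18) and Dusp1 (-0.27). Egr3 was called without a filter on low counts, with the replicate number as a block and without Control 2, and Egr2 without Control 2. None of the 10 other bZIP partner genes passed (0 unadjusted, 0 by DESeq2, 0 by limma-voom). Bach2, which encodes a repressor that competes with AP-1 at shared sites, had a log2 fold change of -0.0029, Mafg of -0.12 and Mafk of 0.05.

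Among 8 genes of the IRF, NFAT, ETS and RUNX factors that bind beside AP-1, 0 passed (2 unadjusted, 0 by DESeq2, 0 by limma-voom). Ets1 had a log2 fold change of 0.05, Nfatc1 of 0.07 and Runx3 of -0.21. Of the IRF partners of BATF, Irf8 stood at 156 and 143 CPM in Control and 183 and 179 CPM in PTC libraries (log2 fold change 0.28, edgeR adjusted p = 0.0818) and was called without a filter on low counts and without Control 1, while Irf4 had a log2 fold change of 0.07. Among 9 genes for turnover of AP-1 protein or mRNA, 0 passed (1 unadjusted, 0 by DESeq2, 0 by limma-voom). Zfp36, which encodes a protein that binds AU-rich mRNAs for decay, stood at 78.7 and 80.5 CPM in Control and 94.4 and 96.2 CPM in PTC libraries, a log2 fold change of 0.26 (edgeR adjusted p = 0.115). Its relatives Zfp36l1 and Zfp36l2 had log2 fold changes of 0.16 and -0.04.

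**Figure D5:**
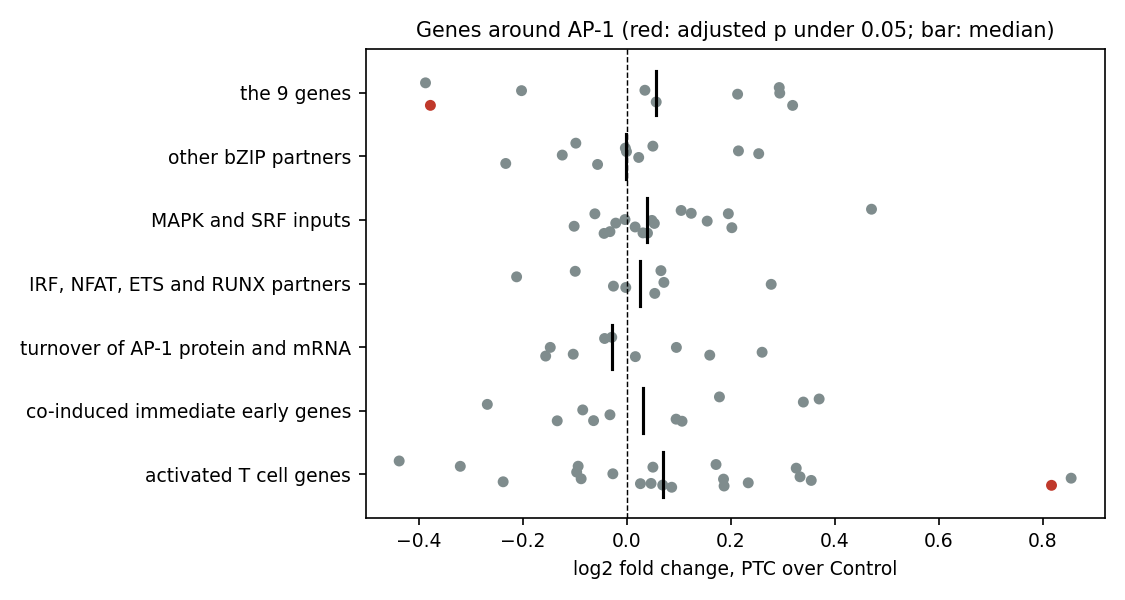
Log2 fold change of PTC over Control (horizontal axis) for the 9 genes and the tested genes of each of the 6 lists, with 1 point per gene, red for an adjusted p under 0.05 and a bar at each median. Fosl2 and Lif are the red points, and the medians of the lists lie between -0.03 and 0.07.

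The table's own transcription factor annotation puts 48 genes, all 9 members among them, in the bZIP family. Of these 42 were tested, and 4 (9.52%, beside 1.35% of all genes tested) were called, all 4 lower: Fosl2, Ddit3 (log2 fold change -1.12), Nfe2l1 (-0.52) and Atf5 (-0.49). Ddit3 and Atf5 encode stress factors of the ATF4 pathway and Nfe2l1 a factor that raises proteasome genes. The median log2 fold change of the 42 was -0.02. This family was looked at after the fold changes had been seen, and these 4 genes are named for that reason.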

How the data were processed

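The authors deposited whole-number read counts per gene, used here as deposited. Per the submitters' processing notes CASAVA 1.8, HISAT2 2.0.5 and featureCounts 1.5.0-p3 were used. Not given in the sources used here are the genome build, strandedness and handling of multi-mapping reads. GENCODE M21 (GRCm38) held 54495 of the IDs, 98.3% of them at the same coordinates. The authors' deposited log2 fold change column is unscaled. Another 2 count columns match none of the 4 samples and were not used.

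Genes were filtered with filterByExpr, scaled by TMM and fitted with edgeR 4.0.16 (R 4.3.3) on the group alone; genes were called at an adjusted p under 0.05. Standard errors are the absolute log2 fold change over the square root of F, and intervals use the t distribution on the fit's degrees of freedom. Alternatives were RLE and upper-quartile scaling, no filter, DESeq2 1.42.0, limma-voom (limma 3.58.1), the replicate number as a block, and each library left out. The fit was tested on simulated counts. Per-length levels use the table's gene length.

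The members and lists were chosen with earlier results of these data known. All members are named; of each list, the genes called and up to 3 uncalled genes with the highest mean CPM. A gene under that rule is not reported here. Genes named for another reason are Xcr1, Itgax, Flt3, Zbtb46, Igkc, Il2, Ifng, Irf4, Irf8, Elk1, Elk4, Egr2, Egr3, Btg2, Dusp1, the overlapping genes and the bZIP genes. No gene of like pattern was sought, since 4 libraries are too few.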

Additional observations from a re-analysis of the deposited data

How the results depend on the processing

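Over all genes, 188 were called, and 432 without a filter on low counts, where 22980 genes were tested. With a library left out, 76 to 422 genes were called (76 without PTC 1, 160 without PTC 2, 337 without Control 2 and 422 without Control 1), and 0 to 2 members: 0 without Control 1, PTC 1 or PTC 2, and Fosl2 and Junb without Control 2. In such a fit the lone library is assumed to vary like the other group. In the pathway lists 1 gene was called, against 4 without a filter, 2 by DESeq2, 2 with the replicate block and 1 to 4 with a library left out, all higher and Lif among them each time. The replicate numbers share only a number: with the block 237 genes were called and 1 member, Fosl2 (adjusted p = 0.0407). Same-numbered libraries deviated in opposite directions (correlation -0.13 over 9746 genes averaging 100 counts or more), and a crossed pairing, chosen after seeing the data, called 699 genes, 2 members and 7 list genes. The FOS to JUN difference ran from -0.23 to 0.03 with a library left out. With a library left out the log2 fold change spanned 0 for Fosb (-0.29 to 0.76), Jund (-0.044 to 0.18), Batf (-0.048 to 0.11), Bach2 (-0.11 to 0.10), Mafk (-0.048 to 0.17), Zfp36l2 (-0.10 to 0.030) and Myc (-0.12 to 0.072). That of Bach2 was also positive under RLE scaling (0.00054), upper-quartile scaling (0.013) and DESeq2 (0.00085). Il2ra was called without a filter, by DESeq2, without Control 2 and without PTC 2. DESeq2 gave no adjusted p for Fosb. The cause of these shifts was not tested. With 2 libraries a group, differences as small as most seen here can be missed, and low counts limit Fosb and Fosl1 most.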
